A study of Mus musculus with 12 samples.

Results

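Folliculin (Flcn), its partner Fnip1, the Rag GTPases Rraga, Rragc and Rragd, the transcription factors Tfeb, Tfe3 and Mitf, and the mTORC1 inhibitors Ddit4 and Sesn2 were followed in mouse embryonic fibroblasts given rotenone. These 10 genes were selected on their place around the kinase complex mTORC1, with the rotenone differences of Flcn and Ddit4, averaged over both genotypes, already known. A probe set (the group of oligonucleotides that reads a transcript on the array) was taken where its annotation gave exactly 1 symbol and that symbol was a member. This gave 12 probe sets for 8 of the 10 genes, among 12393 genes with a probe set of their own. Expression of Fnip1 and Tfe3 was not analysed, since neither had such a probe set. Values that compare rotenone with vehicle are therefore given for the members as a description, without p-values; counts past the test's threshold stand only beside the share of all genes. Genotype and replicate number were not part of the choice and were tested.

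The cells were primary embryonic fibroblasts of wild-type mice or of mice lacking HtrA2 (Omi), a protease of the mitochondrial intermembrane space, at passage 4. They were given either vehicle or rotenone, which blocks complex I of the respiratory chain, at 1 µM for 4 h. Each of the 4 groups (wild-type vehicle, wild-type rotenone, knockout vehicle, knockout rotenone) had 3 arrays, numbered 1 to 3 in the labels. The labels do not say whether these came from separate embryos or cultures, so p-values measure only the spread between these arrays. The whole-animal knockout is the sole genetic change the labels give.

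Values are log2 RMA signals, so a difference of 1 is a doubling. Array medians lay between 7.53 and 7.58. For the wild-type arrays given rotenone, 1 label field says knockout and 3 (title, source, description) say wild type. They were kept as wild type. Htra2 read 9.08 ± 0.06 (SD, n = 3) on them and 9.06 ± 0.24 on the wild-type vehicle arrays. Knockout arrays read 7.67 ± 0.17 with vehicle and 7.77 ± 0.09 with rotenone. The first principal component held 44.7% of the variance and set the 4 number 3 arrays (22.6 to 30.9) apart from the other 8 (-20.1 to -5.69). Probe sets with a mean under the 40th percentile are called dim here. None of the 10 fibroblast markers was dim.

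mTORC1 drives growth when nutrients are plentiful. Rag GTPases, dimers of RagA or RagB with RagC or RagD, bring it to the lysosome, where folliculin with FNIP1 or FNIP2 makes RagC and RagD active by stimulating their GTP hydrolysis. Active mTORC1 phosphorylates TFEB, TFE3 and MITF and holds them in the cytoplasm. When it is inactive, they enter the nucleus and drive genes of lysosomes and autophagy, among them Flcn itself and Rragd. DDIT4 (REDD1) restrains mTORC1 through the TSC complex after hypoxia, energy loss or ATF4 activity. Sestrin 2 restrains it as a leucine sensor that binds GATOR2. FLCN is mutated in Birt-Hogg-Dubé syndrome, a kidney and skin tumour disorder, and its loss sends TFE factors into the nucleus.

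The stretches of 250 bases before the annotated starts of the 3 members with the largest rotenone differences are shown, from RefSeq and the build GRCm38.p6, 5′ to 3′ on the gene's own strand. Capitals mark matches to the motifs searched. They lie at chr11:59810040-59810289 (minus strand) for Flcn, chr4:123917183-123917432 (plus strand) for Rragc and chr10:59951771-59952020 (minus strand) for Ddit4.
Flcn: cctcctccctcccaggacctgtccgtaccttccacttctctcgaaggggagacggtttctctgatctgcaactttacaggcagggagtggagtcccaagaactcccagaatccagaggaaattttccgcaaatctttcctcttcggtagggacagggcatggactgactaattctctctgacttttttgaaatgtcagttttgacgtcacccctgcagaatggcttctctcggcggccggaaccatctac
Rragc: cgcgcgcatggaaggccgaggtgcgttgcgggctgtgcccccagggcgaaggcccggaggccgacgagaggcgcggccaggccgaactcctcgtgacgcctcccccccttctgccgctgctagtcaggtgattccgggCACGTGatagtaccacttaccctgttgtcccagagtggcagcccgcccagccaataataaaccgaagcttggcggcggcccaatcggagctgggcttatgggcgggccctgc
Ddit4: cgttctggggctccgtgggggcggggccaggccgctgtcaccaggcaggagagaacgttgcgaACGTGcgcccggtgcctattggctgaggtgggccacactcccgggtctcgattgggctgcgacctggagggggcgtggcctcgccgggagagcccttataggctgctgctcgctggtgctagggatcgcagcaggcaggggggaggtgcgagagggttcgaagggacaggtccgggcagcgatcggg

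The search covered 300 bases around each start (250 before, 50 after) on both strands, in 15 windows of all 10 members. The E-box core CACGTG, which TFE factors among others bind, was found at -112 in Rragc and at -75 in Fnip1, and in 7.15% of all 32851 windows. ACGTG, the core bound by hypoxia-inducible factors, overlaps CACGTG and occurs in 19.6% of windows. Besides those overlaps it was found at -187 in Ddit4 and, on the opposite strand, at -172 in the first of 3 Mitf windows. The longer palindrome TCACGTGA (0.974% of windows), the M-box TCATGTG (3.77%) and the ATF4-CEBP motif TGATGNAA (3.97%) were found in no window of a member. Flcn had none of these letters in its window. A match describes the letters and is no measured binding site.

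Flcn was higher with rotenone in both genotypes, on every treated array. Its brightest probe set, 1423663_at, read 8.77, 8.67 and 8.63 in wild-type vehicle on arrays 1, 2 and 3, against 9.47, 9.72 and 9.53 in wild-type rotenone. In knockout cells it read 8.74, 8.80 and 8.62 with vehicle against 9.57, 9.65 and 9.20 with rotenone. No rotenone array overlapped any vehicle array, the lowest rotenone value being 9.20 and the highest vehicle value 8.80. Group means ran 9.57 ± 0.13 (SD, n = 3) in wild-type rotenone, 9.48 ± 0.24 in knockout rotenone, 8.72 ± 0.09 in knockout vehicle and 8.69 ± 0.07 in wild-type vehicle cells. Within each treatment the genotypes lay within their spread of each other. The rotenone difference, averaged over genotypes, was 0.82 (SE 0.09), or 1.76-fold, and ranked 8 from the top of 12393 genes. It was 0.69, 1.05 and 0.90 in the same-numbered pairs of wild-type arrays and 0.83, 0.85 and 0.58 in those of knockout arrays. In such bulk samples a change in the share of a cell type and a change in RNA per cell cannot be told apart.

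The other two Flcn probe sets differed in size of response. 1438167_x_at averaged 8.40 ± 0.17 with vehicle and 9.63 ± 0.06 with rotenone in wild-type cells, and 8.41 ± 0.20 and 9.32 ± 0.29 in knockout cells, again without overlap. Its pair differences were 1.08, 1.24 and 1.35 in wild-type and 1.03, 0.90 and 0.80 in knockout cells. It correlated with the brightest probe set over the 12 arrays with r = 0.972. 1456744_x_at was dim, read 4.28 to 5.42 over all arrays and overlapped between treatments in wild-type cells. Its mean difference was 0.40 (SE 0.12).

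Among the Rag GTPases, Rragc, whose product folliculin acts on, was the only one whose values were higher in all 6 pairs. It read 11.11, 11.15 and 11.09 in wild-type vehicle and 11.67, 11.69 and 11.52 in wild-type rotenone arrays. In knockout cells it read 11.13, 11.38 and 11.05 against 11.74, 11.78 and 11.34. The knockout groups overlapped, since rotenone array 3 (11.34) lay below vehicle array 2 (11.38). The mean difference was 0.47 (SE 0.09), or 1.39-fold. Rraga, which encodes RagA, the partner of RagC or RagD, averaged 10.12 ± 0.18 with vehicle and 10.08 ± 0.11 with rotenone in wild-type cells, and 10.08 ± 0.05 and 9.92 ± 0.18 in knockout cells. These neighbours lay within their spread, and the mean difference was -0.10. Rragd, a TFE target in other settings, was dim at 3.64 to 3.88 on all arrays. Its pair differences were 0.09, 0.02 and 0.03 in wild-type and -0.06, -0.09 and -0.10 in knockout cells.

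Ddit4 was higher on every rotenone array than on any vehicle array of its genotype. Its values were 10.54, 10.43 and 10.26 in wild-type vehicle and 10.92, 11.09 and 10.66 in wild-type rotenone arrays. In knockout cells they were 10.33, 10.28 and 10.23 with vehicle and 10.97, 10.92 and 10.66 with rotenone. The mean difference was 0.52 (SE 0.09), or 1.44-fold, with 0.37, 0.66 and 0.40 in the wild-type pairs and 0.65, 0.64 and 0.43 in the knockout pairs. Both rotenone groups (10.89 ± 0.21 and 10.85 ± 0.17) lay above both vehicle groups (10.41 ± 0.14 and 10.28 ± 0.05), and number 3 was the lowest array of each group.

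Sesn2, by contrast, overlapped between treatments. Probe set 1451599_at read 9.73, 9.69 and 9.20 with vehicle and 9.67, 10.09 and 9.32 with rotenone in wild-type cells. In knockout cells it read 9.59, 9.63 and 9.05 against 9.68, 9.98 and 9.33. The overlap was present in both genotypes, and number 3 was again lowest in all 4 groups. The pair differences were -0.06, 0.41 and 0.12 in wild-type and 0.09, 0.36 and 0.28 in knockout cells, with a mean of 0.20. The SE of this mean was 0.17 without replicate number in the fit and 0.07 with it as a block. The other probe set, 1425139_at, followed it with r = 0.976 over the 12 arrays.

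Tfeb, the lysosomal master regulator of the family, had means of 8.35 ± 0.05 with vehicle and 8.27 ± 0.15 with rotenone in wild-type cells, and of 8.38 ± 0.12 and 8.50 ± 0.06 in knockout cells. Its rotenone difference was 0.02 on average, at -0.08 in wild-type and 0.12 in knockout cells. Mitf, the family member that specifies melanocytes, read 6.81, 6.92 and 6.62 in wild-type vehicle and 7.05, 7.29 and 6.96 in wild-type rotenone arrays on 1455214_at. In knockout cells it read 6.19, 6.70 and 6.63 against 6.74, 6.55 and 6.69, which overlap. Its mean difference was 0.23 (SE 0.10), at 0.32 in wild-type and 0.15 in knockout cells. Both its probe sets were dim, and the second, 1422025_at, went its own way (r = -0.34 between them, mean difference 0.07). Markers of melanocytes, which express Mitf strongly, were measured for 5 of 6 genes, and none passed the threshold in the rotenone or number 3 comparison.

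**Figure D1:**
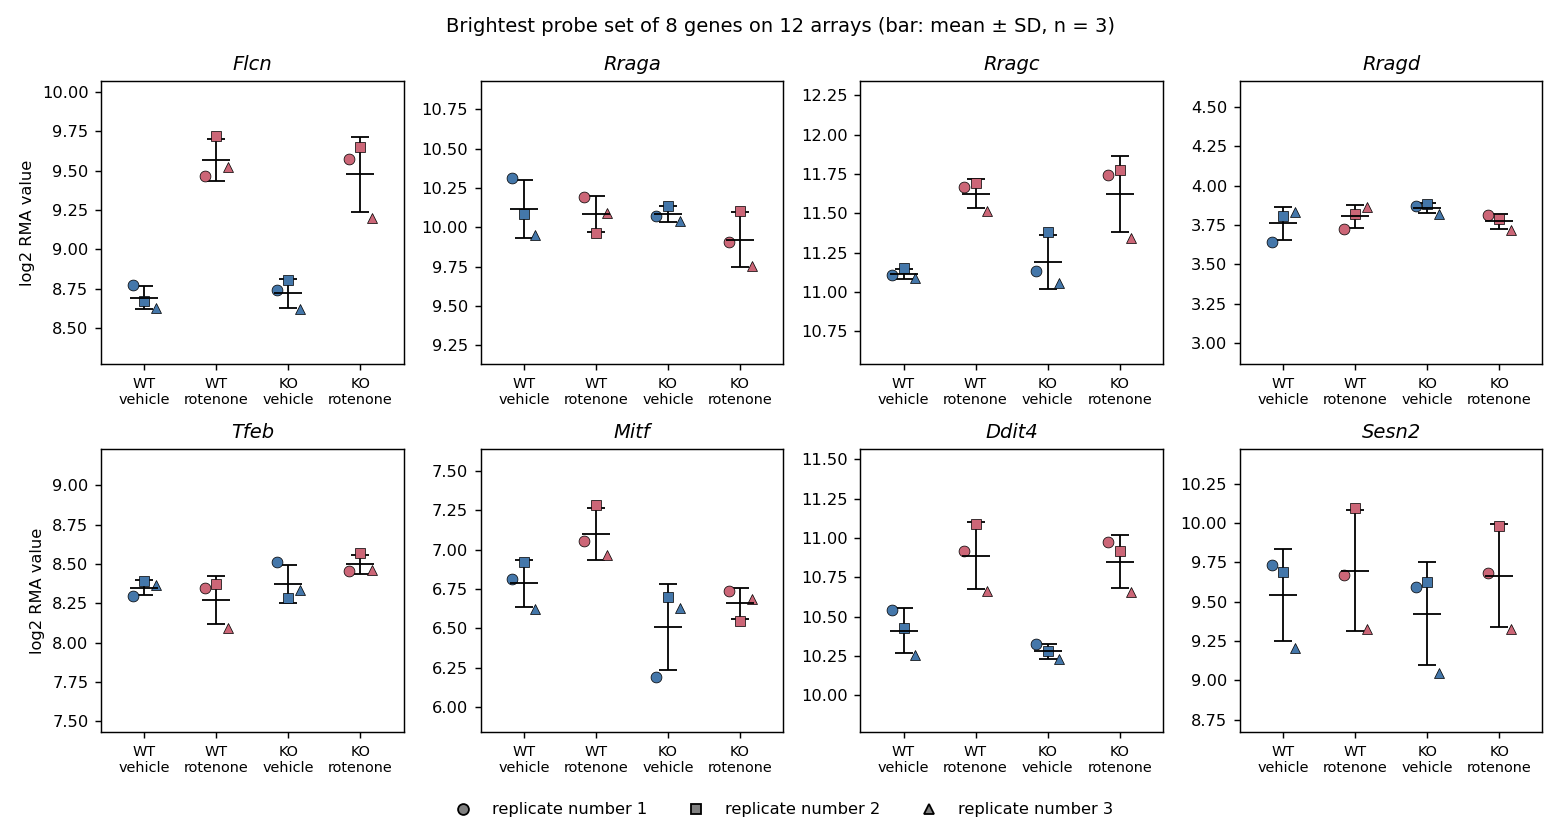
Log2 RMA values of the brightest probe set of 8 genes on 12 arrays, by group (blue vehicle, red rotenone; WT wild type, KO HtrA2 knockout), with marker shapes for replicate numbers and bars for mean ± SD (n = 3). All panels span the same number of log2 units. Flcn and Ddit4 rotenone arrays lie above their vehicle arrays in both genotypes, while number 3 is the lowest Sesn2 array of each group.

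**Figure D2:**
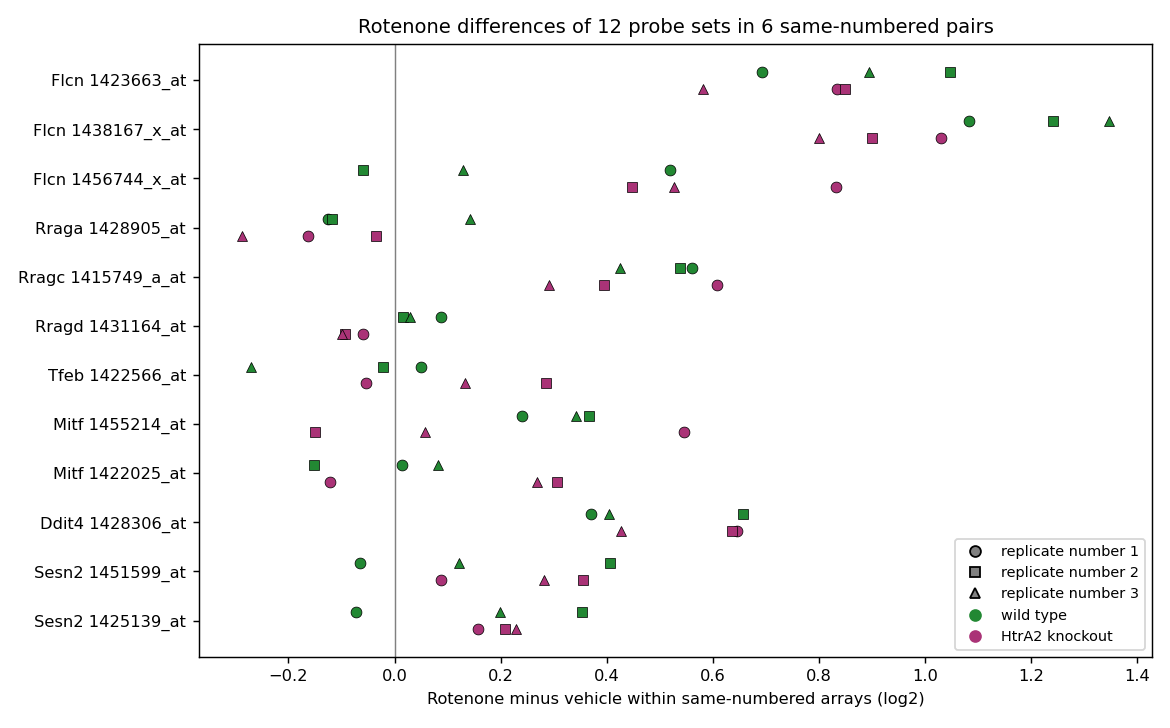
Rotenone minus vehicle within arrays of the same number and genotype (log2, horizontal axis) for the 12 probe sets; colour gives genotype and shape the replicate number. Both bright Flcn probe sets, Rragc and Ddit4 lie right of 0 in all 6 pairs, and Rragd lies right of it in wild-type and left of it in knockout pairs.

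Because the members were chosen with the rotenone contrast in view, counts of members past its threshold (limma, Benjamini-Hochberg adjusted p under 0.05) are stated beside the share of all genes and read no further. In the mean rotenone effect 2 members were past it and higher, Flcn and Ddit4, against 0.113% of genes. With the replicate number as a block Rragc joined them, making 3 (1.53% of genes). In wild-type cells 0 members were past it (0.00807% of genes in either direction) and in knockout cells 0 (0.00807%). With the block these counts were 3 (Flcn, Ddit4 and Rragc; 0.492% higher) and 2 (Flcn and Ddit4; 0.161% higher). In both genotypes every rotenone array lay above every vehicle array for 2 of 8 members, Flcn and Ddit4, as for 0.871% of genes. The median difference of the 8 members was 0.22, beside 0.03 for all genes, 60.8% of which had a positive difference.

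No member passed the test between knockout and wild-type cells. In vehicle, 0 of 8 members passed (0.00807% of all genes did), and 0 had an unadjusted p under 0.05 in the limma fit, or 1 with the block, where 235 of all 22626 probe sets did (667 with the block). The interval of the difference for Flcn ran from -0.24 to 0.30 around 0.03, and for Ddit4 from -0.40 to 0.14 around -0.13. For Mitf, the 1 member under that value with the block, it ran from -0.59 to 0.03 around -0.28. Mitf was lower in the knockout in 2 of 3 same-numbered vehicle pairs, and its second probe set gave -0.02. In rotenone, 0 of 8 passed (0.00807% of genes did), with 2, Mitf and Tfeb, at an unadjusted p under 0.05 in both fits. Of all 22626 probe sets 1260 were under that value without the block and 2938 with it. Among rotenone arrays Mitf stood 1.36-fold lower in the knockout (-0.44, SE 0.14, 95% interval -0.75 to -0.14, limma adjusted p = 0.835), and lower in 3 of 3 same-numbered pairs. With the block on all arrays it did not pass (adjusted p = 0.224). With the block and without number 3 this difference, -0.53, passed (adjusted p = 0.0401), as 1 of 347 of all 22626 probe sets that passed in that fit. It was -0.29 without number 2. The second probe set gave 0.15, and the mean of both gave -0.15. Tfeb was higher by 0.23 (SE 0.10, interval 0.01 to 0.44, adjusted p = 0.835), in 3 of 3 pairs, and by 0.14 without wild-type rotenone 3. For Flcn in rotenone the difference was -0.09 (interval -0.36 to 0.17) on the brightest and -0.31 (-0.63 to 0.02) on the second probe set. The third, which was dim, went the other way, by 0.25 (-0.11 to 0.60), in 3 of 3 pairs.

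The rotenone response of members was not shown to differ by genotype. The interaction passed for 0 of 8 members, as for 0% of genes, and 0 members had an unadjusted p under 0.05. For Flcn the knockout effect minus the wild-type effect was -0.12 (interval -0.50 to 0.25, adjusted p = 1.0), for Rragc -0.08 (-0.46 to 0.31) and for Ddit4 0.09 (-0.29 to 0.48). Sesn2 gave 0.09 (-0.64 to 0.81), Tfeb 0.20 (-0.10 to 0.51) and Mitf -0.17 (-0.60 to 0.27). The lower Mitf value of knockout cells was thus not shown to be particular to rotenone. The less bright Flcn probe sets went opposite ways. 1438167_x_at gave -0.31 (-0.78 to 0.15) and 1456744_x_at 0.41 (-0.10 to 0.91). For Sesn2 the SE of the knockout effect minus the wild-type effect was 0.33 without the block and 0.14 with it. The intervals allow differences in either direction, so equal responses are not shown.

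The mTORC1 inhibitors Sesn2 and Ddit4 fell on the number 3 arrays, in every group. Number 3 against the mean of numbers 1 and 2 gave -0.53 for Sesn2 (SE 0.07, 95% interval -0.69 to -0.37, 1.45-fold lower, limma adjusted p = 1.10e-04) and -0.56 on its second probe set (adjusted p = 4.34e-05). Within the groups the first of these differences lay between -0.56 and -0.50. Ddit4 gave -0.23 (SE 0.07, interval -0.38 to -0.08, 1.17-fold lower, adjusted p = 0.0259). So 2 of 8 members fell and 0 rose, where 11.2% of all genes fell and 13.7% rose, and the fall of Sesn2 was deeper than that of 98.0% of genes. Sesn2 stayed past the threshold when any 1 array was left out. Ddit4 lost its call in 6 of 12 such fits (adjusted p up to 0.0873), without wild-type vehicle 1 or 3, wild-type rotenone 2 or 3, or knockout rotenone 1 or 3.

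Flcn passed on its less bright probe sets alone. It had -0.18 on its brightest probe set (adjusted p = 0.0975), while the others passed at -0.24 (0.0444) and -0.27 (0.0382). Rragc had -0.20 (adjusted p = 0.0553) and was lowest on number 3 in 4 of 4 groups. Without knockout rotenone 3 these differences shrank to -0.10 for the brightest Flcn probe set and -0.13 for Rragc. Rragc passed without wild-type vehicle 2 or 3 (adjusted p = 0.0478 and 0.0458), and both genes passed after quantile normalization (0.0222 for Flcn, 0.0269 for Rragc). Rraga (-0.14), Tfeb (-0.09), Mitf (-0.05) and Rragd (0.02) did not pass. Sestrin paralogs, named after their values were seen, went both ways: Sesn3 fell by 0.47 (adjusted p = 7.97e-04) and Sesn1 rose by 0.31 (0.0110). Ddit4l, the Ddit4 paralog, rose by 0.53 (2.47e-04).

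Some macrophage and osteoclast markers also differed on number 3. Of 7 such genes 4 rose, led by the lysozyme gene Lyz2 (2.26) and Cd68 (0.53), and 1, the protease gene Ctsk, fell (-0.52). Of all genes 13.7% rose and 11.2% fell. Only 3 of the 7 were not dim, and Cd68 and Adgre1, which rose, were dim. The mean log2 level of the list ran from 7.49 to 7.59 on number 3 arrays and from 7.02 to 7.25 on the others. Lyz2 made the largest part of the difference in this mean. Their part in the differences of Sesn2 and Ddit4 was not tested. None of them passed in the mean rotenone effect. Of 4 mast cell markers 0 passed in either comparison, and of 6 epithelial and endothelial markers 1 rose on number 3. Of 10 fibroblast markers 2 rose and 3 fell on number 3, and 0 passed in the mean rotenone effect, where with the block the growth factor receptor gene Pdgfra fell by 0.62 (adjusted p = 0.0315; 0.619 without the block).

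Numbers 1 and 2 did not differ past the threshold for any of the 8 members (0.178% of genes did), and 0 had an unadjusted p under 0.05 in the limma fit. The largest difference was that of Sesn2, 0.18 (adjusted p = 0.490). Whether the rotenone effect differed on number 3 was tested as well. That test passed for 0 of 8 members (0.00807% of genes), with 0 at an unadjusted p under 0.05. The differences were -0.12 for Flcn, -0.17 for Rragc, -0.16 for Ddit4 and 0.01 for Sesn2 (adjusted p = 0.998 each).

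**Figure D3:**
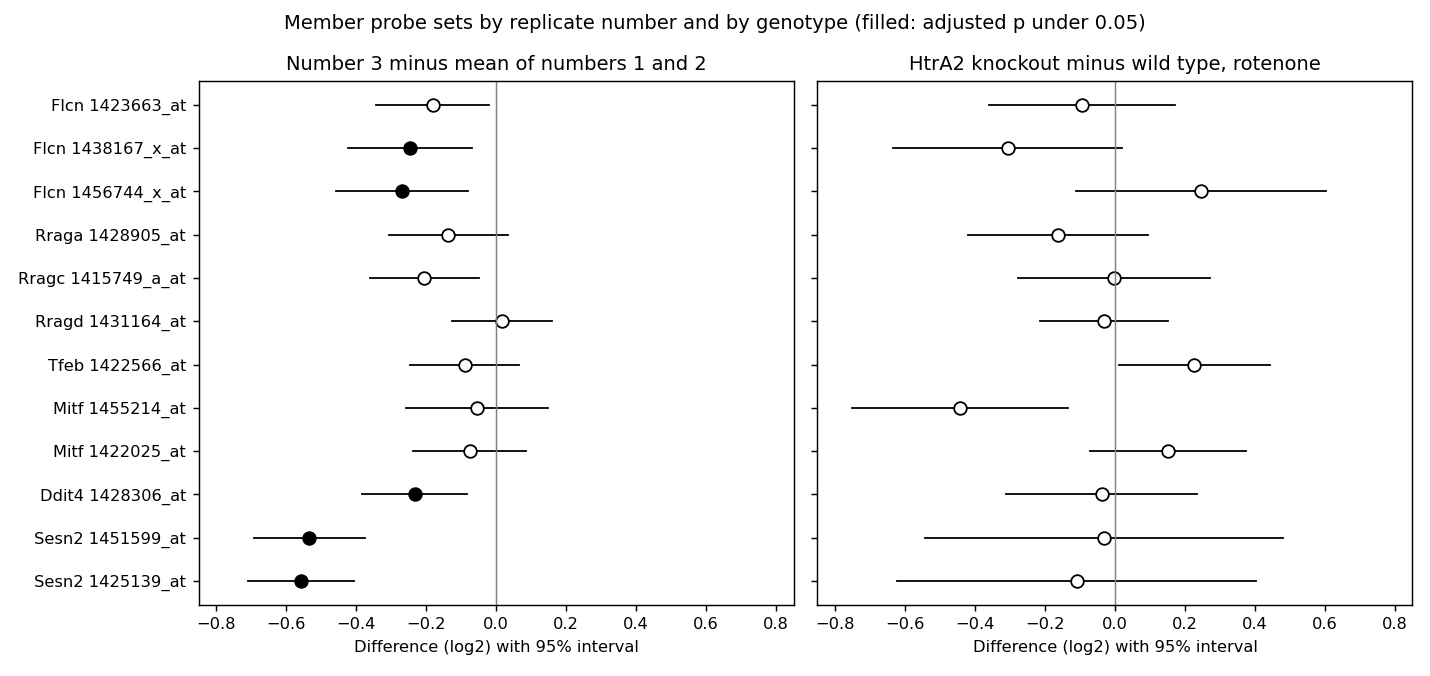
Differences (log2, horizontal axis, with 95% intervals) of the 12 probe sets. Left, number 3 minus the mean of numbers 1 and 2; right, HtrA2 knockout minus wild type in rotenone. Filled circles mark adjusted p under 0.05: both Sesn2 probe sets, Ddit4 and the less bright Flcn probe sets on the left, none on the right.

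The wider pathway was read from 6 lists of genes, the first of which holds genes that TFE factors are known to switch on through the CLEAR motif. The lists, like the members, were chosen with earlier results of these data known. The p-values of list genes therefore describe them and are no independent support. Of 32 measured of 38 listed targets, 3 rose and 0 fell in the mean rotenone effect, where 0.113% of all genes rose. With the block 9 rose and 0 fell, where 1.53% of all genes rose. A positive difference was found for 28 targets and for 60.8% of all genes. The median was 0.17, beside 0.03 for all genes. The vacuolar proton pump subunits Atp6v1b2 and Atp6v1c1 rose by 0.78 (SE 0.11, 1.72-fold, limma adjusted p = 0.0180) and 0.59 (SE 0.08, adjusted p = 0.0156). The lysosomal sialidase Neu1 rose by 0.70 (SE 0.11, adjusted p = 0.0395). All 3 had rotenone arrays above vehicle arrays in both genotypes. The galactosidase gene Gla rose with the block alone, by 0.54 (adjusted p = 0.113 without and 0.00416 with it). So did 5 others, named after their values were seen: Vps18 (0.51), Uvrag (0.44), the autophagy receptor Sqstm1 (0.44), Atp6v1d (0.38) and Atp6v1a (0.34).

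These calls depended on array and, for some genes, on probe set. Other probe sets of Neu1 gave 0.07 and 0.03, and those of Atp6v1b2 gave 0.78 (adjusted p = 0.0415) and -0.04. Those of Atp6v1c1 gave 0.45 (limma adjusted p = 0.0928) and 0.53 (0.0415). With the block, other probe sets of Gla (0.09, adjusted p = 0.571) and Atp6v1a (0.29, 0.110) did not pass, while those of Vps18 and Atp6v1d did. Without the block the count of 3 over all lists became 0 on leaving out wild-type vehicle 1 or 2, knockout vehicle 1 or knockout rotenone 1, and 1 without knockout rotenone 2. It was 0 without number 1 or number 2 altogether and 12 without number 3.

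The other lists held regulators. Among 12 of 16 genes of the mTORC1 core and Rheb axis 0 rose and 0 fell in either fit (median -0.01). The same held for 11 of 14 genes of mTORC2 and the PI3K-AKT inputs (median -0.06) and for 7 of 10 AMPK and LKB1 genes (median -0.10). Among 15 of 24 Rag, Ragulator and nutrient-sensing genes 0 passed, and with the block 1 rose: Lamtor3, a Ragulator scaffold subunit, by 0.34 (adjusted p = 0.537 without and 0.0322 with it). Among 15 of 18 genes that set the place of TFE factors in the cell 0 passed, and with the block the nuclear exporter Xpo1 rose by 0.38 (0.724 and 0.0145). Other probe sets of Xpo1 gave 0.27 and 0.02 and passed in neither fit. Over the 91 distinct genes measured of 118 listed, 3 rose (11 with the block) and 0 fell. Of all genes 0.113% rose (1.53% with the block). Over all 22626 probe sets 1788 had an unadjusted p under 0.05 in the mean rotenone effect.

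**Figure D4:**
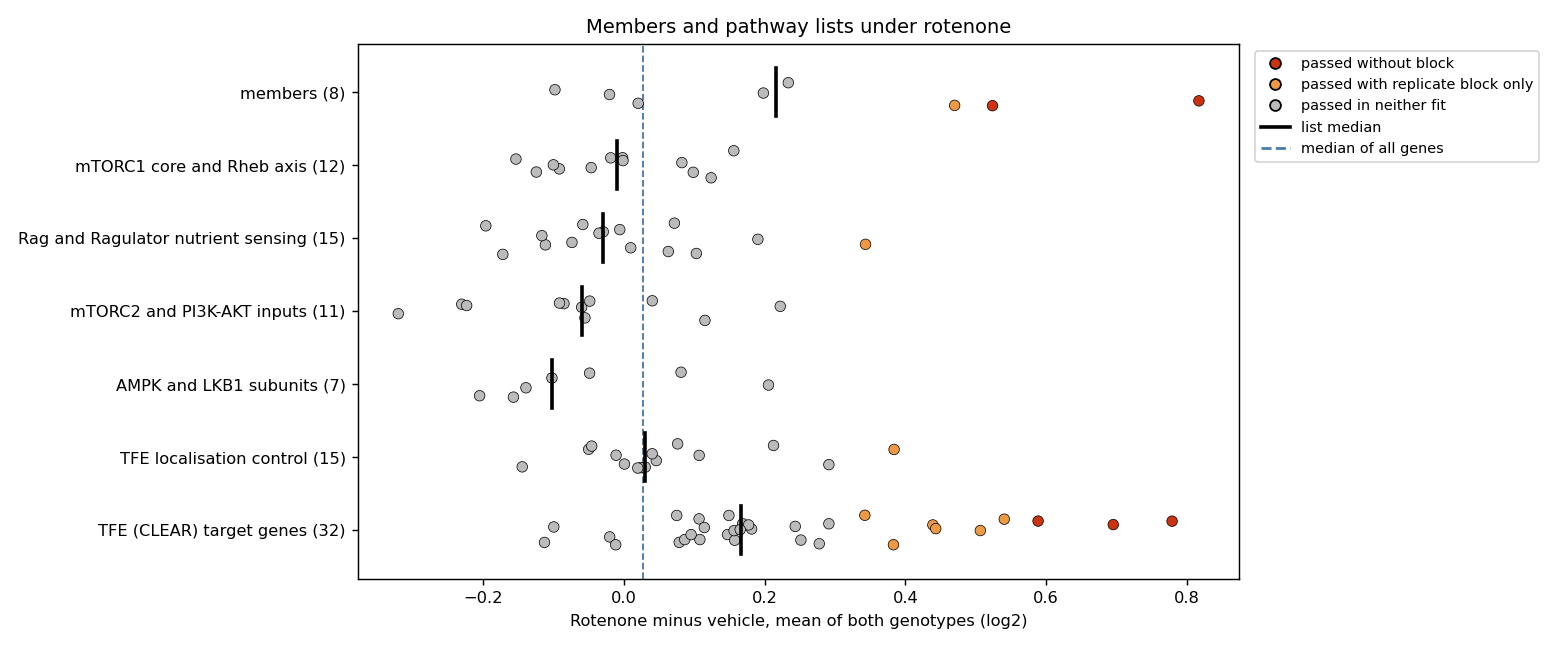
Rotenone minus vehicle, averaged over both genotypes (log2, horizontal axis), for each measured gene of the members and of 6 pathway lists, with the number measured in brackets. Black bars are list medians (0.17 for the TFE targets) and the dashed line is the median of all genes, 0.03; red points passed without and orange points only with the replicate block.

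Profiles most like those of members were found by Pearson correlation over the 12 arrays after the mean of each replicate number was removed. Arrays share treatment groups, so these values describe likeness alone. Nearest to Flcn were Atp6v1b2 (r = 0.989), the clock repressor gene Bhlhe40 (0.981), Rhbdd1 (0.980), Dvl2 (0.970) and Tom1 (0.968). Nearest to Ddit4 were the glutathione-degrading enzyme gene Chac1 (0.970), the amino acid carrier subunit Slc3a2 (0.958), the pseudokinase gene Trib3 (0.958), Rassf5 (0.955) and Rora (0.955). Nearest to Sesn2 were Rasa2 (0.933), Mafg (0.928), Rel (0.909), Slc3a2 (0.905) and Prep (0.893). Among members, Flcn ran closest to Rragc (0.963) and Ddit4 (0.955), and Ddit4 and Sesn2 gave 0.834. Tfeb and Flcn gave 0.004.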

How the data were processed

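Transcript levels were measured on 12 Affymetrix arrays. The authors deposited log2 values, and the submitters' processing notes name RMA, without a version. RMA brings arrays to a common distribution, so a shift shared by all genes is not visible. Of 22690 probe sets, 64 controls were left out. Of the 22626 tested, 20380 had 1 symbol in the platform annotation, 691 several and 1555 none, and the brightest probe set stood for a gene. Symbols of 12377 genes were found in the RefSeq table of GRCm38.p6. limma 3.58.1 in R 4.3.3 (two-sided, Benjamini-Hochberg over all probe sets, threshold 0.05) fitted 4 group means without a block, and replicate number as a factor for the number comparisons. Scripts were tested on simulated data.

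Same-numbered arrays deviated together from their group means (18 pairs, r 0.289 to 0.829), so they were treated as pairs, on the data's evidence and not the labels'; blocked values are given where a call or count moved.

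Members and lists were chosen with earlier results of these data known. Named genes are all members, Htra2, called list genes (at most the 4 largest differences per list and direction) and the 5 nearest profiles of Flcn, Ddit4 and Sesn2. Alternatives left out each array or number, dim probe sets (below the 40th percentile), added a block, changed scaling, averaged probe sets or used a variance trend. A planned comparison of protein sequences was not made.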

Additional observations from a re-analysis of the deposited data

Results flagged for a closer look

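Rragd, the RagD gene, differed in direction between genotypes. Its rotenone pair differences were positive in all 3 wild-type pairs and negative in all 3 knockout pairs, and the knockout effect minus the wild-type effect was -0.13. The interaction did not pass in limma (adjusted p = 1.0, interval -0.39 to 0.13), and the probe set was dim on every array.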

How the results depend on the processing

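Counts of members past the threshold were 0 under every alternative run for knockout against wild type in vehicle, the interaction, number 2 against 1 and the rotenone effect on number 3. With the replicate block the rotenone count was 3 in wild-type and 2 in knockout cells and 11 for the pathway lists. It also put Rragc, the dim Flcn probe set and the marker Pdgfra past the threshold in the mean rotenone effect, and changed no member's call between genotypes. With the block and without replicate 1, 2 or 3 the pathway count was 1, 1 and 16. The mean rotenone count with the block was 1 without replicate 2. With the block, wild-type and knockout rotenone counts were 0 each without replicate 1 and again without replicate 2. Without replicate 3 they were 3 each, and 1 member (Mitf, -0.53) passed for genotype in rotenone. Without dim probe sets the wild-type rotenone count was 1. Quantile normalization gave 4 members for number 3 and 1 for the mean rotenone effect. Averaging probe sets gave 4 members for number 3 and 1 pathway gene, and the variance trend gave 1 member for the mean rotenone effect.

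Leaving out arrays or numbers gave 0 to 3 members in the mean rotenone effect (2 with all arrays), 0 to 1 in wild-type and 0 to 2 in knockout cells, 1 to 3 for number 3 (2 with all arrays) and 0 to 12 pathway genes (3 with all arrays). Ddit4 left the mean rotenone count in 10 of 12 fits without 1 array, and Flcn also without number 1 or number 2. The mean rotenone difference itself ranged from 0.75 to 0.89 for Flcn, 0.46 to 0.58 for Ddit4 and 0.41 to 0.54 for Rragc. The number 3 difference of Sesn2 ranged from -0.62 to -0.44 and passed in all 19 alternatives. No difference checked changed sign while called. The cause of the other changes was not tested. Fits without arrays have fewer samples. With 3 arrays a group, small differences are not detectable, and dim probe sets (Rragd, Mitf, 1 of Flcn) limit what their values show.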

Other observations

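TFE target genes fell on number 3 more often than genes at large. Of the 32 measured targets, 14 fell and 1 rose on number 3 (median -0.20), where 11.2% of all genes fell, 13.7% rose and the median of all genes was -0.04. Sqstm1 had the value -0.92 (limma adjusted p = 3.09e-07). Of the 15 measured genes that set the place of TFE factors in the cell, 4 rose and 0 fell, among them Xpo1 (0.71). Of 15 Rag, Ragulator and nutrient-sensing genes 4 rose and 3 fell, with Lamtor3 at -0.39 (adjusted p = 0.00306). Of 7 AMPK and LKB1 genes 3 rose and 0 fell. Of 12 genes of the mTORC1 core and Rheb axis 2 rose and 1 fell. Among 11 genes of mTORC2 and the PI3K-AKT inputs 2 rose and 0 fell. The regulator lists are short, so their counts are given beside the shares of all genes and read no further. Of 7 macrophage and osteoclast markers 4 rose and 1 fell on number 3, and their part in these values was not tested. Genes were named here after their values were seen.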
